A study of Gallus gallus with 4 samples.

Results

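The genes described here are 10 of retinoic acid synthesis, breakdown and reception, looked up on 4 arrays of chick chorioretinal tissue, that is retina together with the choroid behind it. They were taken through the RefSeq accession of each array probe. Of the 10 genes, 8 had a probe, with 24 probes in all, out of 5294 genes and 43603 probes on the array. CYP26B1, which breaks retinoic acid down, and CYP1B1, a cytochrome P450 that can oxidise retinoids, had no probe with a matching accession. A probe passed where its signal was well above background on all 4 arrays, with no saturated or outlier spot. That left 19 probes of 7 genes, against 35407 probes and 4807 named genes overall.

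Each array held 1 RNA pool made from 4 eyes, and the design text counts 16 eyes of 8 chicks. A glass goggle was put over the right eye on day 6, a treatment used to make chick eyes myopic, and the uncovered left eye served as control. Chicks spent 7 days under normal or violet light with 12 hours of it a day, and buttons 6 mm wide were taken on day 13 from the back of the eye. The 4 groups thus are uncovered and covered eyes, each under normal or violet light. Both eyes of a chick were kept under the same lighting, so the goggle comparison is within chicks and the light comparison between sets of chicks. The strain was not given in the sources used here.

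Retinoic acid is made from vitamin A by retinaldehyde dehydrogenases (the ALDH1A enzymes), carried in the cytoplasm by binding proteins, and broken down by CYP26 enzymes. It acts through nuclear receptors of the RAR and RXR families, which switch on target genes that include RARB, CYP26A1 and DHRS3. In chicks the choroid is known to make retinoic acid through ALDH1A2, and this synthesis is known to change when eye growth is altered.

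Each value is a processed signal on the log2 scale, less the 75th percentile of its array, so 0 is the signal that 75 percent of probes stay below. With 1 array per group there is no error between animals and no p-value. Each probe difference is given with the measurement error that the scanner software reports for its spots, written after ±. This error does not cover chicks, pools or labelling. On the bright CRABP1 probes it was 0.20 in every goggle and light comparison. Spots printed repeatedly gave a smaller SD, 0.07, for a log2 difference. A difference was counted at a log2 size of 1 or more, which is 2-fold.

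Each deposited source gives its own labels to a pair of the arrays. For uncovered normal light, the authors' value table correlated across probes at 0.9992 with the scanner file of covered violet light and at 0.9813 with the file of the same label. For covered violet light it correlated at 0.9997 with the scanner file of uncovered normal light and at 0.9815 with the file of the same label. Values below follow the scanner files, and for the main results those by the table's labels are given too. Swapping these labels makes a goggle difference under normal light the light difference in covered eyes with its sign turned, and under violet light that in uncovered eyes. The array that the scanner files call uncovered normal light was also the one least like the rest, with correlations of 0.9797 to 0.9884 against 0.9877 to 0.9926 among the others. It was the brightest before scaling, with a 75th percentile of 2095 against 1317, 793.2 and 875.7 in uncovered violet, covered normal and covered violet light. Of 11 listed photoreceptor genes 8 had a probe, of 11 listed stroma genes 10 did, and all of these passed. Passing was common, at 4807 of 5294 named genes and all 10 lens genes, so it does not show how much of a layer was present. Lens markers summed to 14.5 in the uncovered violet-light pool against 1.70 to 4.67 elsewhere (sums of signal over the 75th percentile). Striated muscle markers summed to 31.3 in the covered normal-light pool against 9.36 to 11.3. The bright ACTN2, nearly level at 2.98 to 3.20 over the arrays, masks dimmer genes in this sum. By the scanner labels the muscle list was also higher in covered than uncovered eyes under violet light, with a median of 1.54. At least 2-fold higher there were 5 of 8 genes, and by the table's labels the median was 0.23.

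**Figure D1:**
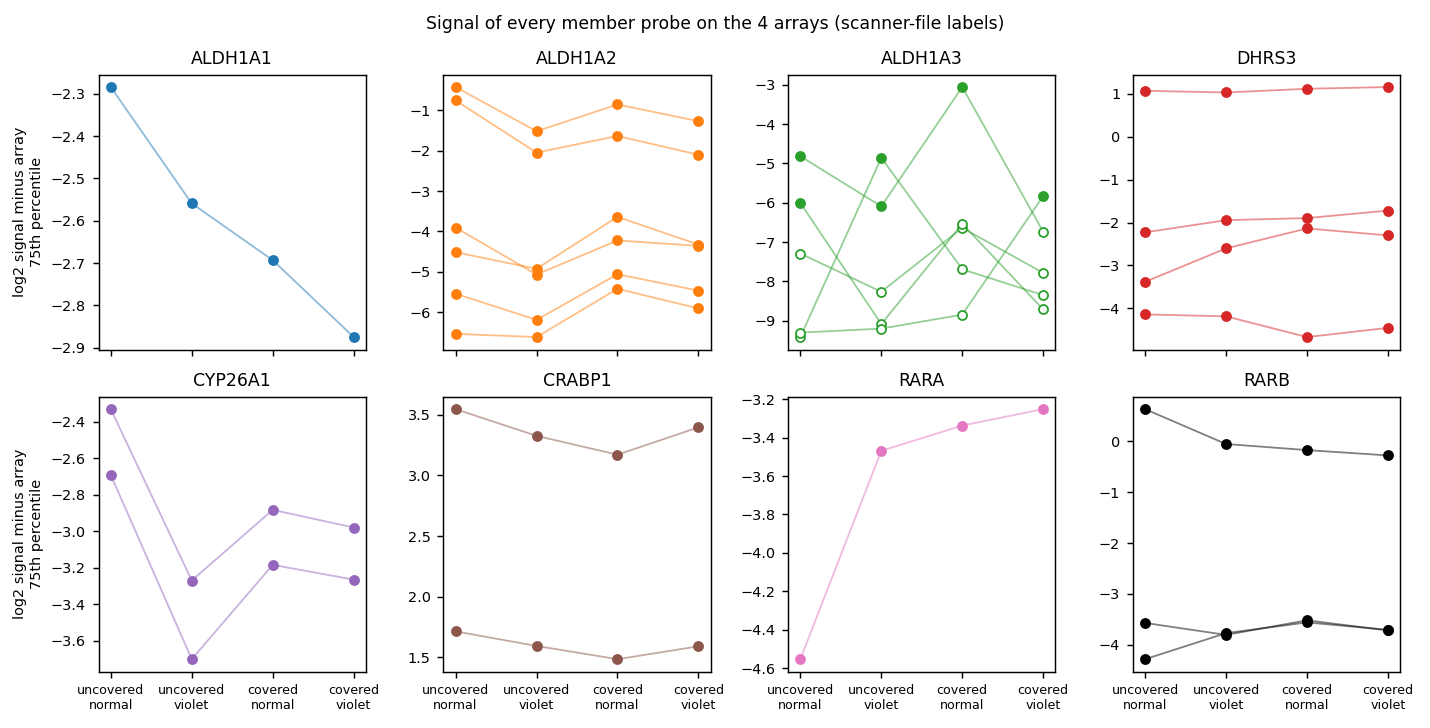
Scaled log2 signal (y axis, own range in each panel) of all 24 member probes on the 4 arrays (x axis, scanner-file labels), 1 line per probe; filled points were well above background and open points were not. The brightest ALDH1A2, CYP26A1 and RARB probes are highest in uncovered eyes under normal light, while RARA is lowest there.

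ALDH1A2, the main retinaldehyde dehydrogenase of the chick choroid, was lower under violet than normal light in both eyes by the scanner labels, and all 6 of its passing probes had this direction. The brightest probe (A_87_P037953) read -0.42 in uncovered normal light, -1.52 in uncovered violet light, -0.85 in covered normal light and -1.27 in covered violet light. Its light difference was -1.09 ± 0.20 in uncovered eyes, which is 2.13-fold, and -0.41 ± 0.20 in covered eyes. The next probe (A_87_P076006) read -0.75, -2.05, -1.64 and -2.10 in the same order, with light differences of -1.29 ± 0.20 and -0.46 ± 0.20. Both normal-light arrays thus lay above both violet-light arrays on these probes.

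The 4 dimmer ALDH1A2 probes gave light differences from -1.16 to -0.08 in uncovered eyes and from -0.69 to -0.13 in covered eyes. The smallest of these, -0.08 ± 0.36 in uncovered and -0.13 ± 0.22 in covered eyes, were within the scanner error, so their direction is uncertain. Across all 6 probes, 3 were at least 2-fold lower in uncovered eyes, as were 1.03% of all passing probes, and none in covered eyes, against 1.19%. Of the 90 genes with at least 6 passing probes, 4 (4.44%) had every probe lower under violet light in both eyes. After normexp background correction, 3 of the 6 probes were higher under violet light in uncovered eyes, and all 6 stayed lower in covered eyes. In bulk tissue, fewer cells of a type and less RNA per cell cannot be told apart.

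By the table's labels the same arrays read as a goggle difference. ALDH1A2 was then higher in covered than uncovered eyes on all 6 probes in each light, by 0.13 to 0.69 under normal light and by 0.08 to 1.29 under violet light. By the same labels every probe was higher for 18 of the 90 genes with at least 6 passing probes under normal light. Under violet light this held for 5 of the 90. By the scanner labels its goggle difference had no common sign. Under normal light it ran from -0.88 to 1.12, with 3 probes on each side, and under violet light from -0.05 to 0.72, with 5 probes higher.

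The only pair of arrays on whose labels both sources match is covered normal light and uncovered violet light. ALDH1A2 was higher in the covered normal-light pool on all 6 probes, by 0.66 ± 0.20 on the brightest and by 0.41 to 1.29 over the 6. Over the other scalings, background correction and the authors' value table all 6 probes kept this direction, from 0.26 to 1.14. The dimmest probes as a group also lay higher in it, with a median of 0.19 in the lowest of 10 bins of signal, and less the median of probes nearest in signal the 6 differed by 0.31 to 1.12. Of the 90 genes with at least 6 passing probes, 18 had all of them higher in this comparison. Goggle and light differ together here, so the comparison assigns the difference to neither. EGR1, a transcription factor used as a retinal marker of the sign of eye growth, lay the other way at -1.59. The pools of this pair also differed in the striated muscle list, with a median of 4.75 and 6 of 8 at least 2-fold higher. In the lens list the median was -1.71, with 6 of 10 at least 2-fold lower. Whether such tissue differences have a part in the ALDH1A2 values was not tested.

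Genes of the choroidal stroma differed on the same arrays. Of 11 listed stroma and fibroblast genes, 10 were measured and none was below background on any array. COL1A1, the remaining one, had no matching probe. Their summed level was 14.6 in uncovered normal light, 7.12 in uncovered violet light, 15.2 in covered normal light and 7.26 in covered violet light. The median light difference of the list was -0.87 in uncovered and -1.15 in covered eyes, with 9 and 10 of 10 lower, against -0.01 and 0.03 for all genes. These medians were, by the table's labels, -0.19 and -0.10, and the list was higher in covered eyes, with medians of 1.15 under normal and 0.87 under violet light. By the scanner labels its goggle medians were 0.10 and 0.19. By these labels 5 of the 10 genes were higher and 5 lower in covered eyes under normal light. At least 2-fold higher were 3 (OGN, POSTN and TNC), against 6.1% of all genes at 2-fold in either direction. Lowest were COL1A2 at -0.60 and DCN at -0.47. In covered normal against uncovered violet light all 10 were higher, with a median of 1.24. The smooth muscle list (3 of 7 measured) was lower under violet light in both eyes for all 3, and the endothelial list (5 of 10 measured) for all 5, with medians of -1.51 and -1.25 that became 0.10 and 0.37 by the table's labels. Whether the share of choroid in the buttons has a part in the ALDH1A2 values was not tested.

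**Figure D2:**
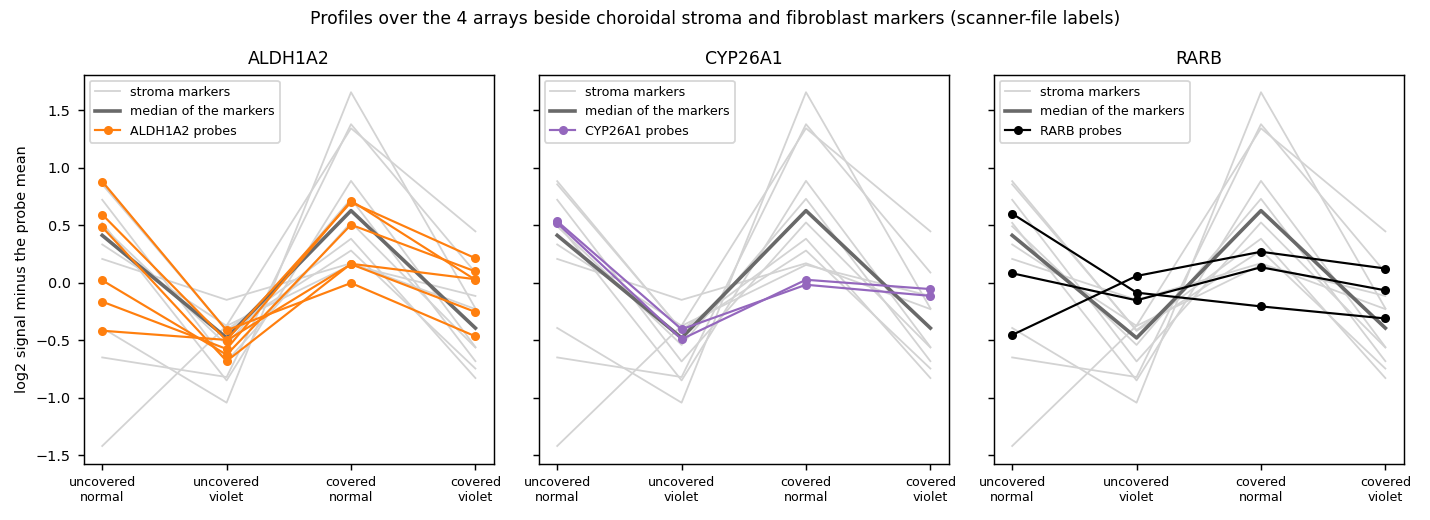
Log2 signal minus the probe's mean over the 4 arrays (y axis) for the probes of ALDH1A2, CYP26A1 and RARB (coloured lines with points), beside 10 stroma and fibroblast markers (light grey) and their median (dark grey), with arrays on the x axis by scanner-file labels. The ALDH1A2 lines, the CYP26A1 lines and the marker median are all low in uncovered violet light. In covered violet light the marker median and the brighter ALDH1A2 probes are low, while the dimmer ALDH1A2 probes lie slightly above their means. CYP26A1 is near its mean on both covered arrays.

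ALDH1A1, a retinaldehyde dehydrogenase known from dorsal retina, had 1 probe, whose differences all stayed under 2-fold. It read -2.28, -2.56, -2.69 and -2.87 in uncovered normal, uncovered violet, covered normal and covered violet light. It was lower in covered eyes by -0.41 ± 0.21 under normal and -0.32 ± 0.21 under violet light, and lower under violet light by -0.27 ± 0.21 and -0.18 ± 0.21. The goggle differences by the table's labels were 0.18 and 0.27 and the light differences 0.32 and 0.41. The pair with undisputed labels differed by -0.13 ± 0.21. After normexp correction the goggle differences were 0.04 and -0.04 and that of the undisputed pair 0.14, so no direction is given for the gene.

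ALDH1A3, the retinaldehyde dehydrogenase known from ventral retina, could not be read as 1 gene. None of its 5 probes was well above background on all arrays. The brightest (A_87_P037852) was well above it on 3, with -4.82 in uncovered normal, -6.09 in uncovered violet and -3.06 in covered normal light. On these 3 arrays it was 3.39-fold higher in covered than uncovered eyes under normal light and 8.20-fold higher in covered normal than uncovered violet light. In covered violet light it was not well above background. Set against the lowest signal that was so on that array, its covered normal-light value was 11.3-fold higher by the scanner labels. Probes with more than this lowest signal can still fail, so the value is a guide and not a strict bound.

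The other 4 ALDH1A3 probes did not share this order. One (A_87_P130418) was well above background only in uncovered violet light. There it was 3.24-fold or more above the lowest signal well above background on each other array. Of the rest, one (A_87_P240563) was so only in covered violet light, one (A_87_P127028) only in uncovered normal light and one on no array. Since these probes point to different arrays, no direction is given for the gene.

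CYP26A1, the enzyme that inactivates retinoic acid and is itself induced by it, was highest in uncovered eyes under normal light, by the scanner labels, on both of its probes. The brighter one (A_87_P037812) read -2.33 in uncovered normal, -3.27 in uncovered violet, -2.88 in covered normal and -2.98 in covered violet light. Under violet light it was lower by -0.94 ± 0.21 in uncovered eyes and by -0.10 ± 0.21 in covered eyes. The other (A_87_P056521) read -2.69, -3.70, -3.18 and -3.26, with light differences of -1.01 ± 0.21 and -0.08 ± 0.21. The uncovered violet-light array was the lowest of the 4 on both probes, and the covered arrays differed from each other by less than the scanner error. After normexp correction the light difference in uncovered eyes shrank to between -0.57 and -0.56. By the table's labels the light differences were -0.29 and -0.44 in uncovered eyes on the brighter and dimmer probe. In covered eyes they were 0.55 and 0.49.

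The goggle difference of CYP26A1 had opposite signs in the lights by the scanner labels. It was -0.55 ± 0.21 and -0.49 ± 0.21 under normal light on the brighter and dimmer probe, and 0.29 ± 0.21 and 0.44 ± 0.21 under violet light. After normexp correction the normal-light difference was near 0, at -0.06 on one probe and 0.03 on the other. The difference between these goggle differences was -0.84 ± 0.29 and -0.93 ± 0.29, a quantity that is the same under both label sets. It was below 0 on both probes with the other scalings, after background correction, less the median of probes nearest in signal and in the authors' value table, from -1.16 to -0.37, the size being least after normexp correction. These settings process the same arrays again, and each includes the array least like the rest, which the scanner files call uncovered normal light. Keeping the same sign over them was not particular to CYP26A1. RARA (0.71 to 1.00) and both CRABP1 probes (-0.66 to -0.17) did so in all 8 settings. With the main scaling, 52.1% of the 3125 genes with at least 2 passing probes had probes of both signs for this quantity. By the table's labels CYP26A1 was higher in covered eyes under violet light by 0.94 and 1.01, and by 0.10 and 0.08 under normal light. Covered normal light lay above uncovered violet light by 0.39 ± 0.21 and 0.52 ± 0.21.

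DHRS3, a short-chain reductase that turns retinaldehyde back to retinol, was nearly level on its brightest probe. That probe (A_87_P024549) read 1.07, 1.03, 1.12 and 1.16 in uncovered normal, uncovered violet, covered normal and covered violet light, all within the scanner error of ± 0.20 on a difference. The 3 dimmer probes disagreed, with goggle differences under normal light of 0.33, 1.24 and -0.53. Only A_87_P116793 reached 2-fold there, and its goggle difference under violet light was 0.30 ± 0.21. That 2-fold value was 0.89 with quantile normalization, 0.93 less the median of probes nearest in signal and 0.16 by the table's labels. For light the 3 dimmer probes differed by 0.28, 0.78 and -0.05 in uncovered eyes and by 0.17, -0.16 and 0.22 in covered eyes. CRABP1, a cytoplasmic retinoic acid binding protein, was the brightest member. Its brighter probe read 3.55, 3.33, 3.17 and 3.40 in the same order, and its differences on both probes lay between -0.38 and 0.23 in the goggle and light comparisons. In all 8 processing settings, the table's labels and values included, both probes were lower in covered eyes under normal light (-0.70 to -0.08). Both were also higher under violet light in covered eyes in all 8 (0.07 to 0.38). Swapping the labels turns each of these comparisons into the other, so they are not separate results. They share the covered normal-light array, the lowest on both probes, and the settings process the same arrays again. The other goggle and light comparisons did not keep the same direction. All these values were under 2-fold.

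RARB, a retinoic acid receptor that is itself a target of the pathway, was highest in uncovered eyes under normal light on its brightest probe only. That probe (A_87_P057451) read 0.63 in uncovered normal, -0.05 in uncovered violet, -0.17 in covered normal and -0.28 in covered violet light. The first array stood above the other 3. The goggle difference was -0.81 ± 0.20 under normal and -0.22 ± 0.20 under violet light, and the light difference -0.69 ± 0.20 in uncovered and -0.10 ± 0.20 in covered eyes. By the table's labels the probe was higher under violet light by 0.22 in uncovered and 0.81 in covered eyes, and higher in covered eyes by 0.10 under normal and 0.69 under violet light.

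The other RARB probes did not give the same values, save for light in covered eyes. There all 3 probes were lower by the scanner labels, by -0.20 to -0.10, each within its scanner error. By the table's labels this reads as 0.10 to 0.20 higher in covered eyes under normal light. A_87_P130358 and A_87_P130978 differed by 0.05 ± 0.21 and 0.72 ± 0.21 between covered and uncovered eyes under normal light. Less the median of probes nearest in signal they differed by -0.37 and 0.32, so that A_87_P130358 then had the direction of the brightest probe and A_87_P130978 the opposite. For light these probes differed by -0.23 ± 0.21 and 0.51 ± 0.21 in uncovered eyes and by -0.20 and -0.15 in covered eyes. For goggles under violet light they differed by 0.09 and 0.06. Both probes are dim, at the 24.2 and 22.1 percentile of mean signal among passing probes, against 69.7 for the brightest. Only with median scaling did the brightest probe of RARB reach 2-fold, at -1.13 for goggles under normal light.

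RARA, another retinoic acid receptor, was lowest in uncovered eyes under normal light by the scanner labels. Its single probe read -4.55 in uncovered normal, -3.47 in uncovered violet, -3.34 in covered normal and -3.25 in covered violet light. It was higher in covered eyes under normal light by 1.22 ± 0.21 (2.32-fold) and higher under violet light in uncovered eyes by 1.09 ± 0.21 (2.12-fold). The other 3 arrays lay within 0.22 of each other, so covered eyes under violet light and light in covered eyes gave only 0.22 ± 0.21 and 0.09 ± 0.21. By the table's labels the same array is covered violet light, and RARA was lower there by -1.09 against uncovered violet and by -1.22 against covered normal light. The probes nearest to it in signal also lay lower on that array, with medians of 0.42 for goggles under normal light and 0.21 for light in uncovered eyes by the scanner labels. Less these medians, RARA differed by 0.79 and 0.87, both under 2-fold.

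**Figure D3:**
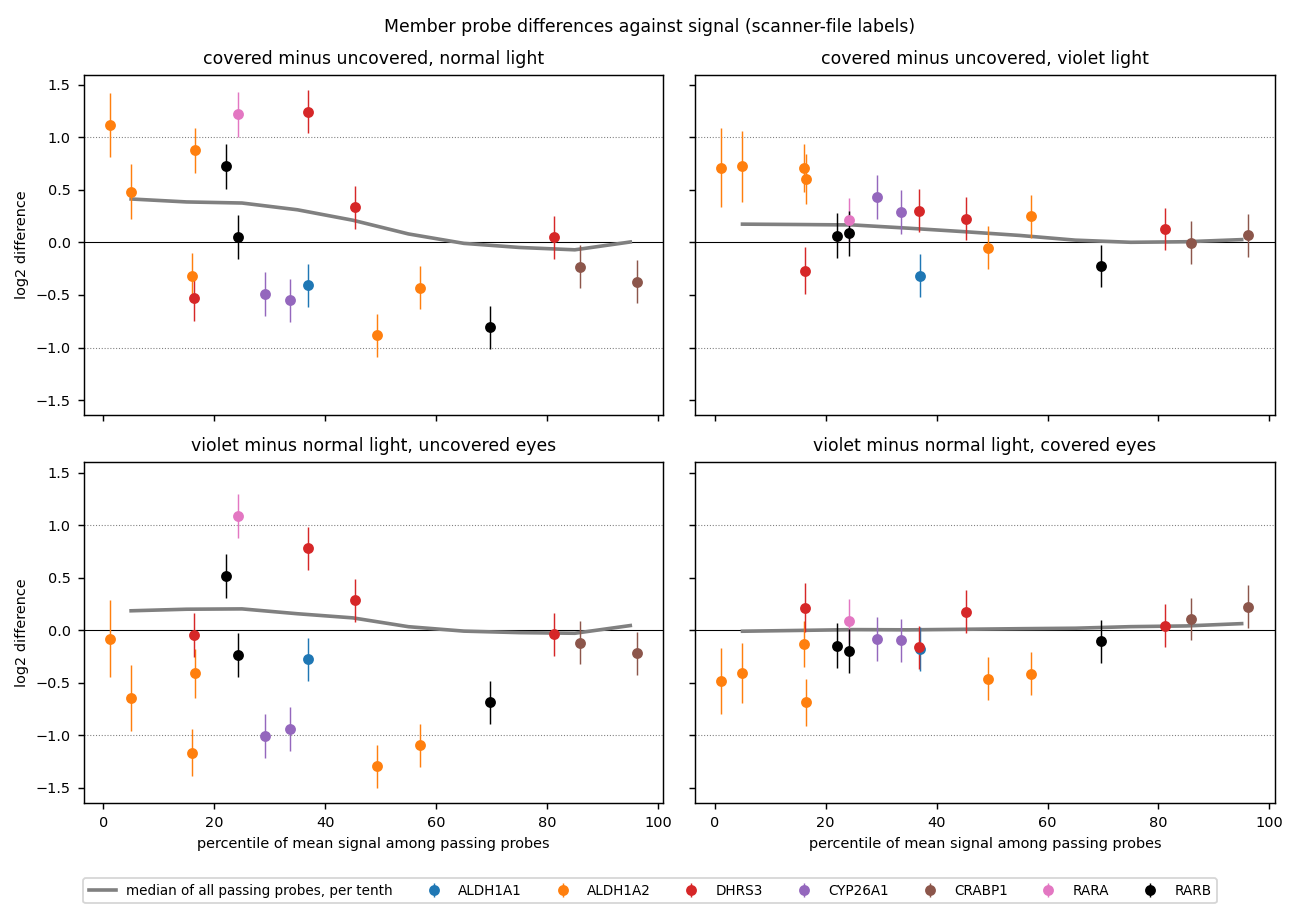
Log2 difference of the 19 passing member probes (y axis, bars: scanner-reported error) against the percentile of their mean signal among 35407 passing probes (x axis), for goggles in each light and light in each eye by scanner-file labels; the grey line is the median of all passing probes in each of 10 bins of signal. Dim probes as a whole lie above 0 for goggles in each light and for light in uncovered eyes, with medians of 0.41, 0.17 and 0.18 in the lowest bin, and near 0 for light in covered eyes.

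The shift with signal touches every member with dim probes. For goggles under normal light the median of all passing probes was 0.41 in the lowest of 10 bins of signal and -0.07 in bin 9. For goggles under violet light it was 0.17 in the lowest bin, for light in uncovered eyes 0.18 and for covered normal against uncovered violet light 0.19. For light in covered eyes it stayed between -0.01 and 0.06 over the bins. For goggles under normal light, 3 of the 5 members with at least 2 passing probes had probes of both signs, as did 51.5% of the 3125 genes with as many. For goggles under violet light 4 of the 5 did, against 47.1%, for light in uncovered eyes 2, against 49.0%, and for light in covered eyes 1, against 41.9%.

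Counted by the probe with the highest mean signal, few of the 7 measured members reached 2-fold. For goggles under normal light it was RARA alone, higher, while 6.1% of 4807 genes passed in either direction. For goggles under violet light it was none, against 1.08% of genes. For light in uncovered eyes it was RARA, higher, and ALDH1A2, lower, against 2.91% of genes. For light in covered eyes it was none, against 2.35%, and for covered normal against uncovered violet light none, against 3.16%. For the light-by-goggle difference it was none, against 3.14%, with RARA just short of it. By the table's labels, none reached 2-fold for goggles under normal light (2.35% of genes) or for light in uncovered eyes (1.08%). ALDH1A2, higher, and RARA, lower, reached it for goggles under violet light (2.91%), and RARA, lower, for light in covered eyes (6.1%). With so few members, these counts describe the genes and show nothing particular to them. By this probe and the scanner labels, 5 of the 7 had their highest value in the uncovered normal-light array (ALDH1A1, ALDH1A2, CYP26A1, RARB and CRABP1), as did 36.3% of all genes. By the table's labels that array is covered violet light. Of all 19 passing member probes 10 were highest there, against 30.4% of all passing probes.

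**Figure D4:**
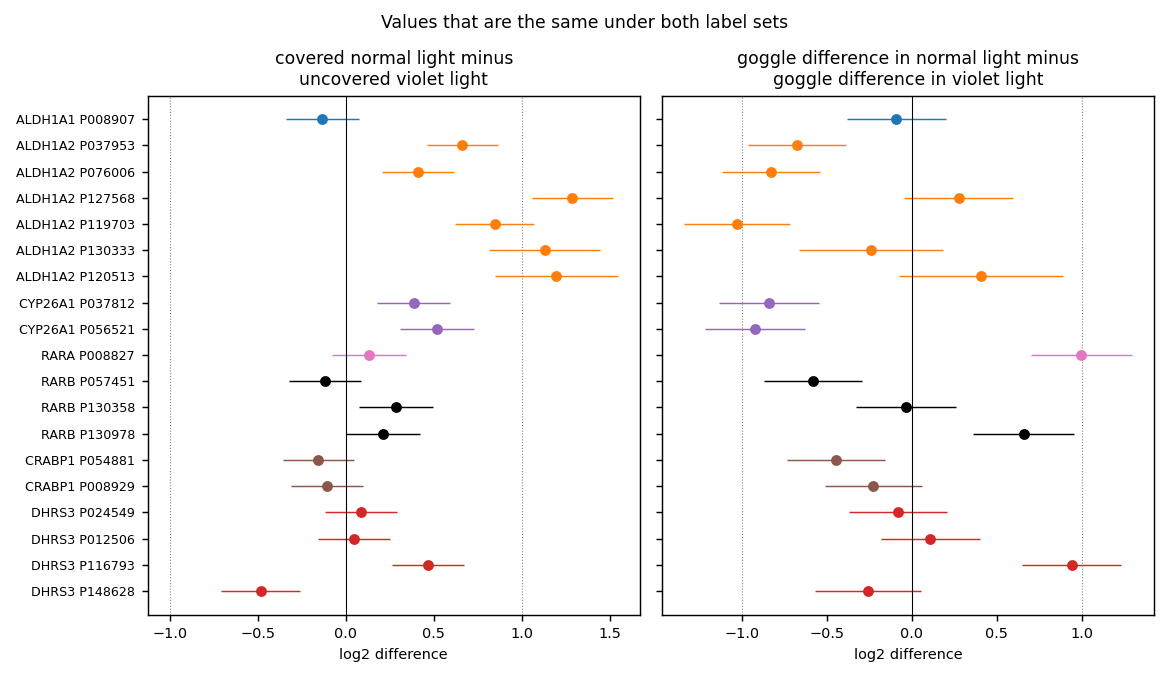
Log2 differences (x axis, bars: scanner-reported error) of the 19 passing member probes (y axis) that have the same value under both label sets: covered normal light minus uncovered violet light on the left, and the goggle difference under normal light minus that under violet light on the right. All 6 ALDH1A2 and both CYP26A1 probes lie above 0 on the left, and both CYP26A1 probes below 0 on the right. Both CRABP1 probes lie below 0 on each side.

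Around these members, 53 further genes of retinoid handling, receptors and targets were listed, and 24 had a passing probe. RARG, RXRA and RXRB had none. By the scanner labels, none of the 24 was at least 2-fold higher in any of the 4 goggle and light comparisons. At least 2-fold lower were 2 for goggles under normal light and 1 under violet light, against 1.41% and 0.686% of all genes. For light it was 1 in each eye, against 1.69% in uncovered and 2.27% in covered eyes. The list median was -0.04, -0.06, 0.04 and -0.05 in these comparisons, against 0.02, 0.05, -0.01 and 0.03 for all genes.

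Named among them is RBP4, which carries retinol in blood. It read 6.30 in uncovered normal, 6.51 in uncovered violet, 4.54 in covered normal and 4.73 in covered violet light. By the scanner labels both covered arrays were lower, by -1.77 and -1.78, and by the table's labels it was higher under violet light instead, by 1.78 in uncovered and 1.77 in covered eyes, with goggle differences of -0.20 and -0.21. Its difference between covered normal and uncovered violet light, on which both label sets match, was -1.97. RARRES1, a gene first described as responsive to retinoic acid receptors, read -0.30 in uncovered normal, -1.28 in uncovered violet, -0.42 in covered normal and -1.63 in covered violet light. Its light difference was -0.99 and -1.21, and by the table's labels it was higher in covered eyes by 1.21 under normal and 0.99 under violet light. APOA1, a lipid carrier on the target list, read 3.91, 2.42, 2.89 and 2.02, with light differences of -1.49 and -0.87. By the scanner labels it was also lower in covered eyes, by -1.02 under normal and -0.40 under violet light. APOA1 was, by the table's labels, higher in covered eyes, by 0.87 under normal and 1.49 under violet light, and higher under violet light in covered eyes by 1.02. On both genes the normal-light arrays of the scanner labels lay above the violet-light arrays, as on the brightest ALDH1A2 probe. RXRG, the partner receptor known from cones, was lowest in uncovered normal light by the scanner labels at -3.24, against -2.62, -2.46 and -2.37 on the other arrays.

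RDH10, which makes the retinaldehyde that ALDH1A enzymes use, read 1.24, 0.74, 0.62 and 0.32 and stayed under 2-fold in each comparison. FABP5, a lipid carrier that can bind retinoic acid, differed by -0.23 to 0.04 in the 4 comparisons.

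Likeness to the members was measured as the Euclidean distance between mean-centred profiles over the 4 arrays, among 4806 other genes. Nearest to the brightest ALDH1A2 probe were FZD4, a Wnt receptor of retinal vessels (distance 0.07), ASB9 (0.12) and KRT24 (0.16). Nearest to the CYP26A1 probe whose arrays spanned 2-fold were LMX1B (0.15), DACH2 (0.16) and PLAU (0.18). Nearest to RARA were P2RY6 (0.08), USF3 (0.09) and BIRC8 (0.10), and to the DHRS3 probe A_87_P116793 FLNC (0.04), RGMA (0.04) and ERICH1 (0.06). With 4 arrays such nearness describes these arrays only, and how often genes lie this near was not counted.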

How the data were processed

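Cy3-labelled RNA of 4 pools, from 100 ng each, was hybridised to 1-colour arrays and read with Agilent Feature Extraction 11.5.1.1, per the submitters' processing notes and the file headers. Per the file headers, each spot has an intensity, already corrected for background and spatial trend, and its error. The deposited files also hold 0 or 1 marks (another unit, as deposited) for background, saturation and outliers. The authors' deposited value table gives intensity on a linear scale, normalized by means not given in the sources used here.

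Spots of a probe were averaged (43803 spots, 43603 probes) after log2, and each array's 75th percentile was subtracted. Probes with an outlier mark (26) were left out. Accessions were matched without version to RefSeq genes of GRCg7b, which named 11711 probes. The headers state an older build, so no coordinates are given. Python 3.11.15, R 4.3.3 and limma 3.58.1 were used. Of a gene's passing probes, the one brightest on average stands for it. Repeated spots (31 probes printed at least 5 times) gave an SD of 0.07 for a log2 difference.

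The members, lists and comparisons were chosen with earlier results of these data known. Named genes are all members, listed retinoid genes at 2-fold in any of the 4 comparisons, RXRG, EGR1 and for each member with a passing probe spanning 2-fold, the 3 genes nearest to the brightest such probe. RDH10 and FABP5 were added after their values were seen. Alternatives were other scalings, normexp correction (offset 50, on the spot's median signal), the table's labels and values, other probe rules and, added later, subtraction of the median of the probes nearest in signal. Difference and scaling steps were tested on simulated data. The number of arrays limits precision. No sequence was used here, so the promoter and protein comparisons planned were not made.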

Additional observations from a re-analysis of the deposited data

How the results depend on the processing

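No paired analysis was possible because each group is 1 pool on 1 array, and no array could be left out of a group for the same reason. Counts are of members at least 2-fold different. For goggles under normal light the count of 1 became 0 with quantile normalization, cyclic loess, the table's labels, the authors' value table and the brighter probes, and 2 with no filter on signal. Median scaling kept 1, but it was RARB, lower, in place of RARA, and it moved the median of all genes to -0.30 (-0.18 for light in uncovered eyes). For goggles under violet light the count of 0 became 2 in the authors' value table and 2 by the table's labels. For light in uncovered eyes the count of 2 became 0 after normexp correction, in the authors' value table and by the table's labels, and 1 with the mean of probes and with the brighter probes. It stayed at 2 with quantile normalization, median scaling and cyclic loess, where the members were ALDH1A2 and CYP26A1, both lower. For light in covered eyes the 0 became 1 with the table's labels and 1 with no filter. For covered normal against uncovered violet light it became 1 with no filter. For the light-by-goggle difference it became 1 with quantile normalization, median scaling, cyclic loess, the authors' value table (CYP26A1 in each) and no filter (ALDH1A3). Subtracting the median of the probes nearest in signal, an alternative chosen after seeing the data, gave 0 for goggles under normal light (RARA at 0.79), 2 for light in uncovered eyes (ALDH1A2 and CYP26A1, lower) and 1 for the light-by-goggle difference (CYP26A1, at -1.06). With the table's labels 3 probe values of at least 2-fold changed sign: light in uncovered eyes for ALDH1A2 A_87_P076006 (0.052) and RARA (-0.22), and goggles under normal light for RARA (-0.086). In the authors' value table these were 0.15, -0.082 and -0.14. No other alternative turned any of the 12 such values. By the table's labels these changes of sign follow from the swap, which puts another comparison, with its sign turned, in place of each. Which label set is right was not tested. Dim probes limit ALDH1A3, RARA and the dimmer ALDH1A2, RARB and DHRS3 probes. They also limit ALDH1A1 and both CYP26A1 probes, at the 36.9, 33.6 and 29.2 percentile of mean signal among passing probes.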
